A study of Mus musculus with 12 samples.

Results

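The 42 genes described here encode subunits of RNA polymerase I and factors that process and assemble ribosomes, out of 12885 gene symbols measured. They are the symbols that begin with Nop, Utp, Rrp or Polr1, followed by numbers and small letters, together with Dkc1, Fbl, Ncl, Npm1, Nolc1, Bysl, Pno1, Ddx21, Nhp2, Gar1, Bop1, Pes1 and Wdr12. All 42 passed the filter on low values. RNA was sequenced from naive CD8+ T cells of spleens of 6-week-old C57Bl/6 mice, labelled female, that were wild type (WT) or homozygous for the Ikaros-Zn4 mutation (Ikaros-Zn4-/-, here Zn4). Ikaros is a zinc-finger DNA-binding protein of lymphocytes encoded by Ikzf1, and the Zn4 animals carry the mutation from the germ line, so their CD8+ T cells also developed with it. Cells sorted as CD8+, high in CD62L and low or negative for CD44 were lysed at once (0 h) or stimulated for 12 h or 24 h by antibodies to CD3 and CD28 fixed to the plate, with 2 libraries in each of the 6 groups. The labels do not say whether the 2 libraries of a group came from different animals, so p-values measure the spread between these libraries. This spread may be technical, other than at 12 h, where sex-linked transcripts given below differ between the 2 libraries of each genotype.

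Ribosome production begins in the nucleolus, where RNA polymerase I transcribes the genes of the large ribosomal RNA precursor. The precursor is modified by small nucleolar ribonucleoproteins (snoRNPs), of which the box C/D kind directs methylation of ribose and the box H/ACA kind directs pseudouridylation. It is then cleaved and folded by the small-subunit processome into the 40S subunit and by a separate set of factors into the 60S subunit. A resting lymphocyte has small nucleoli, and stimulation through the T cell receptor and CD28 is known to raise ribosome production before the cell divides.

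Values are RPKM (read counts divided by gene length and library depth), which relate a gene to all the RNA of its library, so a change of the total RNA per cell does not show, and fewer expressing cells cannot be told apart from less RNA per cell. The libraries held 24263907 to 33389808 reads, and 246 to 132954 reads fell in a member. Ikzf1 was at 90.9 to 128 RPKM in WT and 114 to 139 RPKM in Zn4 libraries, and a value per gene does not show the mutated part of its transcript. CD8 T cell markers (Cd3d, Cd3e, Cd3g, Cd8a and Cd8b1, all 5 listed) summed to 1050 to 1210 RPKM in the libraries other than stimulated Zn4, and to 677 to 825 RPKM in the 4 stimulated Zn4 libraries, whereas Cd4 was at most 2.09 RPKM. Of 3 myeloid markers Itgam alone was listed, at 1.16 RPKM at most, and the markers chosen for B, natural killer and erythroid cells were not analysed here. Libraries at 12 h stood apart from their labels: 4 Y-linked transcripts summed to 38.9 RPKM in WT 12 h replicate 1, 43.4 in Zn4 12 h replicate 1 and 21 in Zn4 12 h replicate 2, against at most 0.0209 RPKM elsewhere. Xist, the RNA of the inactive X chromosome, was at 0.0023 RPKM in WT 12 h replicate 1, 0.0258 in Zn4 12 h replicate 1 and 24.3 in Zn4 12 h replicate 2, against 27.2 to 82.7 RPKM elsewhere. These values go against the label female in both replicate 1 libraries of 12 h and are mixed in Zn4 12 h replicate 2, and whether male or pooled animals were used was not tested. Both Zn4 libraries of 12 h carry these transcripts, so in Zn4 cells their presence and the 12 h time cannot be told apart, and comparisons with 12 h are given below also with the Y-linked level as a covariate. Within groups this level differed mainly between the WT 12 h libraries, so the adjustment for it rests mainly on that pair. In Zn4 cells the adjustment is thus carried over mainly from WT cells, and it widens the error of comparisons with 12 h.

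The promoters of the members are described before their levels. The table of RefSeq promoters (build GRCm38.p6, 250 bases before to 50 bases after each start) held 35 of the 42, and did not hold Npm1, Bop1, Rrp12, Fbl, Utp6, Utp11l and Utp23. The E-box CACGTG, a palindrome that Myc and related factors are known to bind, was present in 7 of the 35 (20%), against 8.09% of the 27025 genes in the table. These 7 were Nop2, Pno1, Pes1, Utp20, Utp18, Rrp7a and Utp14b. TGGGAA, which holds the core GGGAA that Ikaros is known to bind, was present on either strand (as TGGGAA or TTCCCA) in 13 of the 35 (37.1%), against 28.3% of all genes. The background holds all genes of the promoter table, also genes not measured here, and the shares among tested genes were not computed. Members in the table without CACGTG all rose at 12 h as well. A match describes the letters in the window, and no binding was measured. For the E-box, 3 promoters are printed 5′ to 3′ with CACGTG in capitals, from 150 bases before to 30 bases after the start: Nop2, with the highest fitted rise in WT cells at 12 h (chr6:125131733-125131912, plus strand), Pes1, which also fell again by 24 h in both genotypes (chr11:3963825-3964004, plus strand), and Utp14b, which fell (chr1:78658290-78658469, plus strand). For TGGGAA, 30 bases around the match are printed for 2 of the 3 genes called higher in Zn4 cells that hold it, Polr1d (chr5:147077240-147077269, plus strand) and Rrp9 (chr9:106477248-106477277, plus strand), with TGGGAA in capitals. The Utp14b stretch lies inside the annotated spans of both Utp14b and Acsl3, a gene of the same strand described below. Those of Polr1d and Rrp9 lie inside the annotated spans of their own genes.
Nop2: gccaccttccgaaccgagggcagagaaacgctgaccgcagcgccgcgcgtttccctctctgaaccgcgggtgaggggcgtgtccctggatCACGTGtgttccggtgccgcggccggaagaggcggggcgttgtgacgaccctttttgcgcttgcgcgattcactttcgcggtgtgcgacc
Pes1: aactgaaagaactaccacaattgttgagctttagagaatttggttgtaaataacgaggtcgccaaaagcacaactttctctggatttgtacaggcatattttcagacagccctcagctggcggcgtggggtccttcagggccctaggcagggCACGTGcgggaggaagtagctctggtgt
Utp14b: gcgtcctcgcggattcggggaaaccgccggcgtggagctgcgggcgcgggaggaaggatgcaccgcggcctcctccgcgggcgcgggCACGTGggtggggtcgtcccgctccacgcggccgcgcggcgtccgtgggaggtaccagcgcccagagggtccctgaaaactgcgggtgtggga
Polr1d: ggactcaagtccTGGGAAtagccagccctg
Rrp9: cccgctgcgccgTGGGAAcctatcagggct

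Nearly the whole set was higher after 12 h of stimulation. No cells cultured without the antibodies are among the samples used here, so the stimulus and the time in culture cannot be told apart in any comparison with 0 h. In WT cells 41 of the 42 members were higher at 12 h than at 0 h and 1, Utp14b, was lower (limma on log2(RPKM + 1), Benjamini-Hochberg adjusted over 12726 tested genes, called below an adjusted p of 0.05). Among all tested genes 43.1% were called higher and 27% lower, so a called rise was common with the deposited scaling. With median-ratio scaling 4351 tested genes were called higher and 4537 lower. The genes of the table held 73.8% and 76% of reads in the WT libraries at 0 h and 82.9% and 83.7% at 12 h. The median change of the members was 1.89 on the log2(RPKM + 1) scale, against 0.20 for all tested genes. The level at 12 h was 4 times that at 0 h in the median of the 41 members that rose (1.31 to 9.19 times), and it at least doubled in 37 of them. Together the members took 0.39% and 0.41% of the summed RPKM in the WT libraries at 0 h and 1.31% and 1.2% at 12 h. Without WT 12 h replicate 1, which holds Y-linked transcripts, the median was 1.81. With the Y-linked level as a covariate 41 members were called higher and 1 lower, with the same median. The covariate rests mainly on the difference between the WT 12 h libraries, so it is not a check separate from leaving out replicate 1.

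Zn4 cells gave the same counts, 41 higher and 1 lower at 12 h, where 43.5% of tested genes were called higher and 29.6% lower. Their median change was 2.03, against 0.19 for all tested genes, and it was 1.85 with the Y-linked level as a covariate and 1.95 or 2.05 without 1 of the 12 h libraries, each with 41 higher and 1 lower. The 12 h level was 4.25 times the 0 h level in the median of the 41 members that rose (1.47 to 11.4 times). The members' share of the summed RPKM went from 0.41% and 0.4% to 1.4% and 1.35%. In both genotypes the 12 h libraries did not overlap the 0 h libraries in this share.

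**Figure D1:**
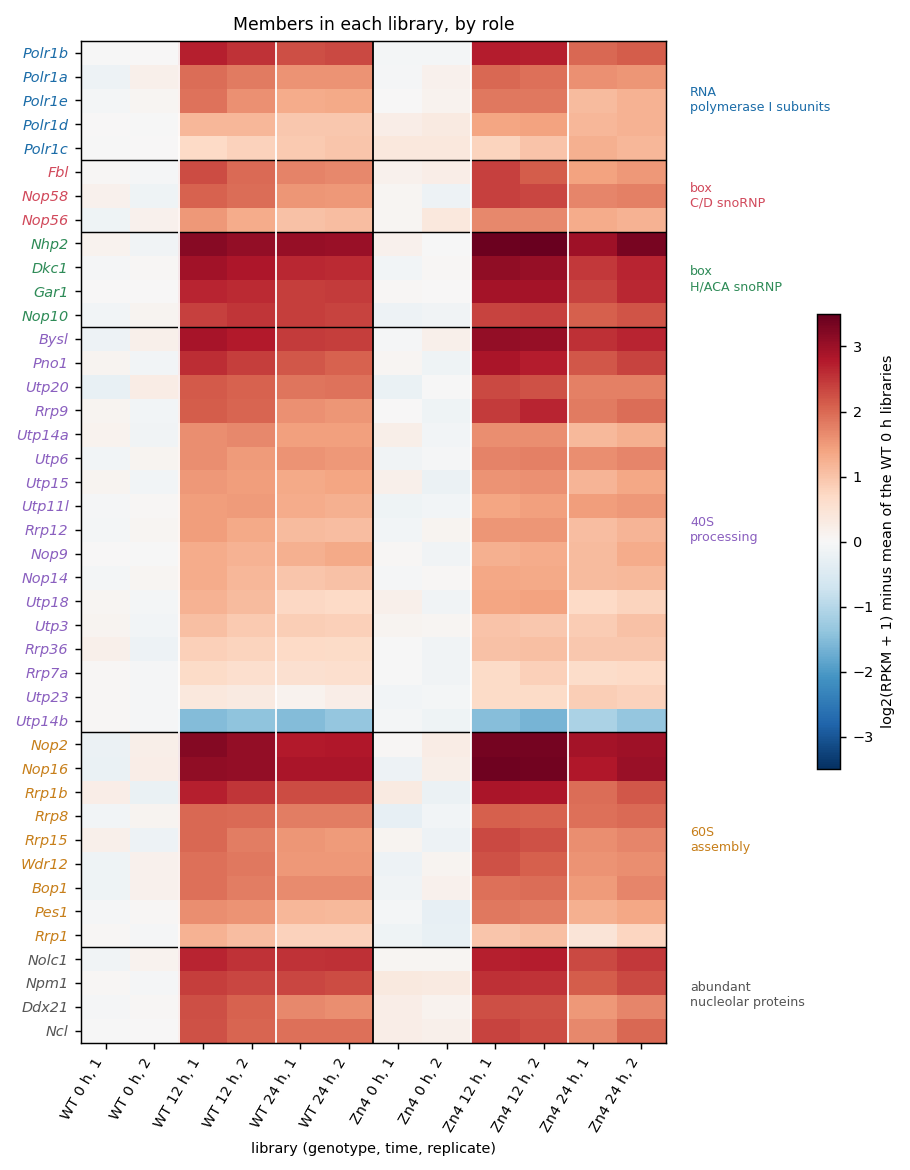
Each row is a member, grouped by role, and each column a library; the colour is log2(RPKM + 1) minus the mean of the WT 0 h libraries for that gene. All rows but Utp14b turn red at 12 h in both genotypes, Nhp2, Dkc1, Nop2, Nop16 and Bysl most deeply, and most are paler at 24 h.

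**Figure D2:**
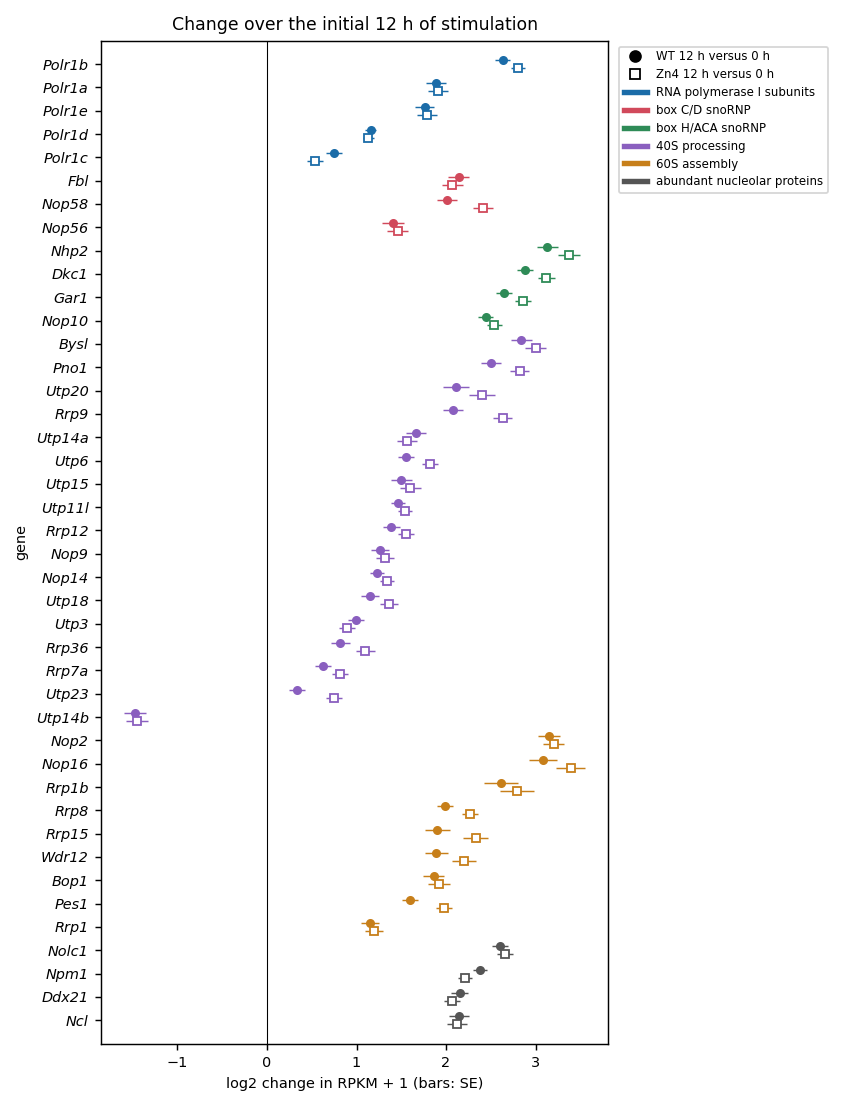
Points are the fitted log2 change in RPKM + 1 from 0 h to 12 h for each member, filled for WT and open for Zn4, with bars of 1 SE from the limma fit. The values run from -1.47 (Utp14b) to 3.15 (Nop2) in WT cells and from -1.45 (Utp14b) to 3.39 (Nop16) in Zn4 cells.

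All 5 RNA polymerase I subunits rose in WT cells at 12 h, by a median of 1.76 on the log2 scale, with fitted changes from 0.75 (Polr1c) to 2.63 (Polr1b). Polr1b, the second-largest subunit, had WT levels of 7.29 and 7.34 RPKM at 0 h, 54.2 and 47.1 RPKM at 12 h, and 38.8 and 40.1 RPKM at 24 h, and its change over 12 h was 2.63 ± 0.08 (SE, adjusted p = 2.15e-08, limma). In Zn4 cells Polr1b stood at 6.86 and 6.97 RPKM at 0 h, 54.6 and 53.5 RPKM at 12 h, and 32.7 and 35.3 RPKM at 24 h. No 12 h library came near a 0 h library, and the 24 h libraries lay between them in both genotypes. Polr1a, the largest subunit, rose by 1.89 ± 0.11, and Polr1e, a subunit peculiar to RNA polymerase I, by 1.76 ± 0.11. Polr1c and Polr1d, which also belong to RNA polymerase III, rose by 0.75 ± 0.09 and 1.16 ± 0.06. At 0 h their levels were above those of Polr1a, Polr1b and Polr1e in all 4 libraries. Polr1c had WT levels of 22.9 and 23.3 RPKM at 0 h, 38.1 and 41.2 RPKM at 12 h, and 44.1 and 46.6 RPKM at 24 h. Its Zn4 levels were 30 and 30 RPKM at 0 h, 40.7 and 47.5 RPKM at 12 h, and 56.5 and 52.5 RPKM at 24 h. Unlike the other 4 subunits it was highest at 24 h, where both libraries were above both 12 h libraries in each genotype. Polr1d had WT levels of 29.5 and 28.9 RPKM at 0 h, 67 and 66 RPKM at 12 h, and 57.4 and 56.8 RPKM at 24 h. Its Zn4 levels were 34.4 and 36.2 RPKM at 0 h, 77.8 and 79 RPKM at 12 h, and 66.6 and 68.6 RPKM at 24 h, above the WT levels at each time.

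The box C/D proteins rose at 12 h in both genotypes. Fbl (fibrillarin), the methyltransferase of these particles, had WT levels of 9.06 and 8.68 RPKM at 0 h, 47 and 38.3 RPKM at 12 h, and 32 and 30.4 RPKM at 24 h. Its change of 2.14 ± 0.12 over 12 h (SE) was the highest fitted value of the 3, above Nop58 (2.01 ± 0.11) and Nop56 (1.41 ± 0.12), the core proteins that hold the particle together. Nop56 was the most abundant per length, at 37.4 and 45.7 RPKM at 0 h, 120 and 104 RPKM at 12 h, and 85.4 and 88.7 RPKM at 24 h in WT cells. In Zn4 cells Fbl stood at 9.98 and 10.5 RPKM at 0 h, 50.4 and 42.1 RPKM at 12 h, and 25.2 and 27.5 RPKM at 24 h. Zn4 levels of Nop56 were 43.6 and 53.5 RPKM at 0 h, 135 and 135 RPKM at 12 h, and 103 and 96.9 RPKM at 24 h. For both genes every stimulated library exceeded every resting library.

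The 4 box H/ACA proteins had the highest median rise of the 6 role groups in WT cells, 2.77 on the log2 scale (2.44 to 3.13), with levels at 12 h between 5.67 and 9.09 times those at 0 h. These proteins also belong to telomerase. Nhp2, a core protein, had WT levels of 21.8 and 18.2 RPKM at 0 h, 190 and 174 RPKM at 12 h, and 172 and 168 RPKM at 24 h. Zn4 levels of Nhp2 were 22.1 and 19.9 RPKM at 0 h, 223 and 228 RPKM at 12 h, and 164 and 208 RPKM at 24 h. In both genotypes all libraries of 12 h and 24 h lay far above all libraries of 0 h. Dkc1 (dyskerin), the pseudouridine synthase, changed by 2.88 ± 0.09 and Gar1 by 2.65 ± 0.09. Nop10, the smallest rise of the 4 at 2.44 ± 0.08, stood at 16.9 and 19.3 RPKM at 0 h, 99.3 and 106 RPKM at 12 h, and 101 and 97.6 RPKM at 24 h in WT cells, so that its 24 h libraries overlapped those of 12 h. Its Zn4 levels were 15.7 and 16.6 RPKM at 0 h, 97.9 and 100 RPKM at 12 h, and 80.9 and 86 RPKM at 24 h, without overlap between these times.

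The small-subunit processome and 40S maturation factors were the most varied group, with 16 of 17 higher and 1 lower at 12 h in WT cells, and changes from -1.47 to 2.84. Bysl (bystin), needed for maturation of the 40S subunit, had the highest rise, 2.84 ± 0.12 (adjusted p = 5.47e-08, limma), with WT levels of 5.04 and 6.61 RPKM at 0 h, 49.4 and 45.7 RPKM at 12 h, and 35.9 and 35 RPKM at 24 h. In Zn4 cells Bysl stood at 5.64 and 6.6 RPKM at 0 h, 56.2 and 55.4 RPKM at 12 h, and 39.2 and 41.8 RPKM at 24 h. In both genotypes the libraries of the 3 times did not overlap. Transcripts of Ccnd3, on the opposite strand, share 361 bases with Bysl, and the strand setting of the counting is not given in the sources used here. Pno1, which acts with the nuclease Nob1 in the last cleavage of 18S RNA, rose by 2.5 ± 0.11, Utp20 by 2.11 ± 0.15 and Rrp9, a protein specific to the U3 snoRNP, by 2.08 ± 0.11. Rrp9 had WT levels of 20.4 and 17.6 RPKM at 0 h, 86.1 and 80.4 RPKM at 12 h, and 59.1 and 57.3 RPKM at 24 h. Zn4 levels of Rrp9 were 19.1 and 17 RPKM at 0 h, 108 and 126 RPKM at 12 h, and 69.6 and 76.8 RPKM at 24 h, above the WT levels at 12 h and 24 h. Smaller changes were fitted for Utp3 (0.99 ± 0.09), Rrp36 (0.82 ± 0.11) and Rrp7a (0.63 ± 0.09). Utp23, a factor of early 18S processing, changed least: 6.75 and 6.2 RPKM at 0 h, 8.63 and 8.33 RPKM at 12 h, and 7.12 and 7.76 RPKM at 24 h in WT cells, a change of 0.34 ± 0.09 at 12 h (adjusted p = 0.00515). This call depended on the scaling, since the change was 0.07 with median-ratio scaling and 0.10 with quantile normalization, neither called. Its Zn4 levels were 5.93 and 6.19 RPKM at 0 h, 10.8 and 10.9 RPKM at 12 h, and 12.5 and 12 RPKM at 24 h, and every stimulated Zn4 library was above every WT library.

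Utp14b was the exception in direction. It is a retrotransposed copy of the X-linked Utp14a, known for its need in male germ cells. Its WT levels were 7.29 and 6.85 RPKM at 0 h, 1.8 and 2.03 RPKM at 12 h, and 1.83 and 2.17 RPKM at 24 h, and the fall over 12 h was -1.47 ± 0.12 (adjusted p = 3.25e-06, limma). Zn4 levels were 6.73 and 6.25 RPKM at 0 h, 1.85 and 1.63 RPKM at 12 h, and 2.73 and 2.15 RPKM at 24 h, a change of -1.45 ± 0.12 over 12 h. Resting libraries were higher than all stimulated libraries in both genotypes. Its source gene went the other way: Utp14a had WT levels of 11.4 and 9.62 RPKM at 0 h, 34.5 and 36 RPKM at 12 h, and 30 and 30.1 RPKM at 24 h, a rise of 1.66 ± 0.11. Utp14b lies at chr1:78658038-78671512 (GRCm38, plus strand) inside Acsl3, an acyl-CoA synthetase gene of the same strand at chr1:78657825-78707743, and 244 of its 7679 annotated exon bases (3.2%) are also exon of Acsl3. Acsl3 itself was at 8.58 and 10 RPKM in WT cells at 0 h and at 1.66 and 2.47 RPKM at 12 h, so reads of Utp14b and of Acsl3 moved the same way, and the part of shared reads in the fall of Utp14b was not tested. Utp14a and Utp14b transcripts align over 1228 bases at 79.2% identity.

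All 9 factors of 60S assembly rose at 12 h in WT cells, by a median of 1.9. Nop2, a methyltransferase of the 28S RNA, had the highest fitted change of all members, 3.15 ± 0.12 (adjusted p = 4.14e-08, limma), with WT levels of 16.3 and 21.6 RPKM at 0 h, 181 and 167 RPKM at 12 h, and 135 and 137 RPKM at 24 h. In Zn4 cells Nop2 stood at 19.3 and 22.5 RPKM at 0 h, 199 and 200 RPKM at 12 h, and 147 and 154 RPKM at 24 h. Libraries of the 3 times did not overlap within either genotype. Nop16 followed at 3.08 ± 0.16 and Rrp1b at 2.61 ± 0.19. The 3 proteins of the PeBoW complex, which acts in processing of the precursor of the large-subunit RNAs, all rose, Wdr12 by 1.89 ± 0.13, Bop1 by 1.86 ± 0.12 and Pes1 by 1.6 ± 0.09, although Wdr12 was listed at 1.39 and 1.96 RPKM at 0 h in WT cells, where the added 1 RPKM damps its change, and its level rose 5.3 times. Rrp1, the most abundant 60S factor per length at 0 h, rose least: WT levels were 102 and 97.4 RPKM at 0 h, 233 and 212 RPKM at 12 h, and 176 and 174 RPKM at 24 h, a change of 1.15 ± 0.1. Its Zn4 levels were 90.3 and 83.2 RPKM at 0 h, 195 and 207 RPKM at 12 h, and 136 and 168 RPKM at 24 h, below the WT levels at rest, at 12 h and at 24 h.

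The abundant nucleolar proteins rose by a median of 2.27 in WT cells at 12 h. Nolc1 (Nopp140), a chaperone of snoRNPs, rose most, by 2.6 ± 0.09, with WT levels of 30.3 and 35.6 RPKM at 0 h, 213 and 195 RPKM at 12 h, and 195 and 199 RPKM at 24 h. Its WT libraries of 12 h and 24 h overlapped. Zn4 levels of Nolc1 were 34.8 and 34.4 RPKM at 0 h, 223 and 226 RPKM at 12 h, and 168 and 188 RPKM at 24 h, with no overlap of these times. Ncl (nucleolin), which binds precursor rRNA, had WT levels of 88 and 89.1 RPKM at 0 h, 419 and 368 RPKM at 12 h, and 342 and 337 RPKM at 24 h, a change of 2.14 ± 0.11 and the highest level of all members in every stimulated library. Zn4 levels of Ncl were 104 and 101 RPKM at 0 h, 464 and 436 RPKM at 12 h, and 288 and 361 RPKM at 24 h. Ddx21, an RNA helicase of the nucleolus, rose by 2.15 ± 0.09, and Npm1 (nucleophosmin) by 2.38 ± 0.08. Npm1 is among 10 members with near-identical transcripts of other genes (at least 95% over at least 300 bases), 4 genes in its case, so some of its reads could belong to copies. The others are Pes1, Wdr12, Fbl, Nop56, Rrp7a, Bysl, Ddx21, Nop9 and Utp14a.

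Between 12 h and 24 h the set moved back part of the way. In WT cells 13 members were lower at 24 h than at 12 h and 0 higher, against 6.94% of all tested genes lower and 17% higher, and the median change was -0.23, against 0.04 for all tested genes. Polr1b, Polr1d, Polr1e, Fbl and Nop58 fell, as did Utp18, Rrp9, Rrp12, Bysl, Pno1, Pes1, Rrp1 and Ddx21. Ddx21 changed by -0.50 ± 0.09 (adjusted p = 0.00412, limma) and Rrp9 by -0.51 ± 0.11 (0.00803). None of the 4 H/ACA proteins was called, and Nop10 changed by -0.04 ± 0.08 and Nhp2 by -0.10 ± 0.12. Both 24 h libraries were below both 12 h libraries for 36 members (32.4% of all tested genes), the exceptions being Polr1c, Nop10, Utp6, Utp14b, Nop9 and Nolc1. The count of 13 moved with the fit, to 23 with median-ratio scaling and 28 with only the groups compared, where the share of all tested genes was not computed. It also rests on single libraries: it was 2 without WT 12 h replicate 1, in which 37 of 42 members were higher than in replicate 2, 8 without replicate 2, 3 without WT 24 h replicate 1 and 1 without replicate 2, and it was 2 with the Y-linked level as a covariate, at medians between -0.28 and -0.21. Among all tested genes 42.7% were higher in WT 12 h replicate 1 than in replicate 2. The number of all tested genes called lower went from 883 to 1451 with median-ratio scaling and to 317 with the Y-linked covariate. Over these settings no called member changed its direction.

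In Zn4 cells 28 members were lower at 24 h than at 12 h and 1, Polr1c, was higher, against 11% and 22.6% of all tested genes, and the median change was -0.41, against 0.05 for all tested genes. The 13 members called lower in WT cells were all among the 28. Polr1b fell, from 54.6 and 53.5 to 32.7 and 35.3 RPKM (-0.65 ± 0.08, adjusted p = 0.000382, limma), and Fbl from 50.4 and 42.1 to 25.2 and 27.5 RPKM (-0.79 ± 0.12, adjusted p = 0.000878). Called lower were 4 of 5 polymerase subunits, all 3 box C/D proteins, 3 of 4 H/ACA proteins, 7 of 9 60S factors, all 4 abundant nucleolar proteins and 7 of the 17 factors of 40S processing. Both 24 h libraries were below both 12 h libraries for 35 members (29.4% of all tested genes). With the Y-linked level as a covariate the count was 0 and the median -0.30. That fit also widens the error of this comparison, and whether sex had a part in the lost calls was not tested. Among all tested genes the number called lower also fell with this covariate, from 1398 to 128. The count of members called also fell without either Zn4 12 h library and without Zn4 24 h replicate 1. In the latter 7 of 42 members were higher than in replicate 2, against 43% of all tested genes.

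**Figure D3:**
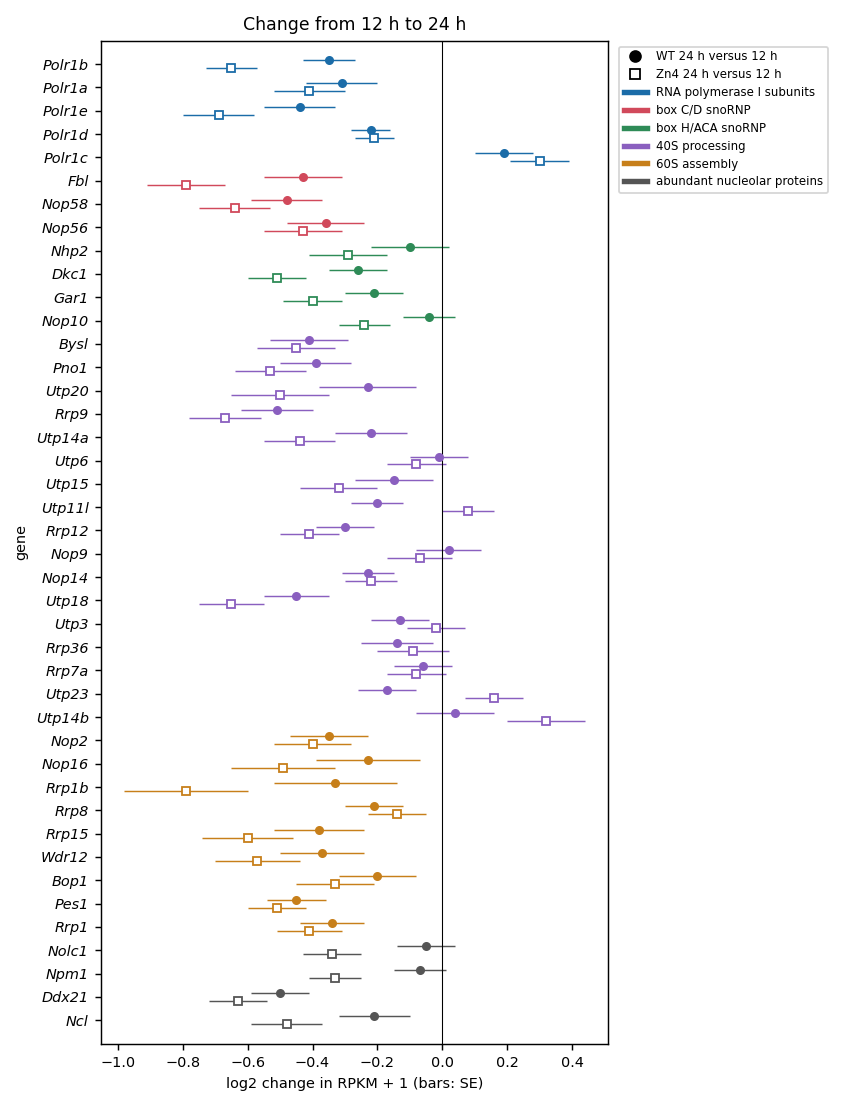
Points are the fitted log2 change in RPKM + 1 from 12 h to 24 h for each member, filled for WT and open for Zn4, with bars of 1 SE from the limma fit; the line marks no change. Most points lie left of the line, with medians of -0.23 in WT and -0.41 in Zn4 cells, and Polr1c lies right of it in both genotypes.

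The share of the 12 h rise that was left at 24 h, taken from the group means as the difference from 0 h at 24 h over that at 12 h, had a median of 75.4% in WT cells and 68.6% in Zn4 cells over the 41 members that rose. It was lower in Zn4 cells for 33 of the 41. By role the WT medians ran from 64.5% (box C/D) through 74.2% (polymerase subunits), 75% (60S), 78.7% (40S) to 88.2% (box H/ACA and nucleolar proteins), and the Zn4 medians were 56%, 66.5%, 59.9% and 73.2% for the same 4 groups, then 76.3% for box H/ACA and 69% for the nucleolar proteins. Both genotypes use their own 12 h libraries in this share, and no test is attached to it. Polr1c stood above its 12 h level at 24 h in both genotypes, with 134% and 174%.

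Despite the decline the members were still far above rest at 24 h. In WT cells 40 were higher than at 0 h and Utp14b lower, against 48.3% and 25.6% of all tested genes, with a median of 1.54 (0.31 for all tested genes). The member not called was Utp23, at 0.18 ± 0.09 (adjusted p = 0.0893, limma). Its estimate depended on the scaling, at -0.18 with median-ratio scaling (adjusted p = 0.0804) and -0.22 with quantile normalization (adjusted p = 0.0483), which called 39 members higher and 2 lower. In Zn4 cells 41 were higher and Utp14b lower, against 48.7% and 26%, with a median of 1.61 (0.31 for all tested genes). There Utp23 rose by 0.91 ± 0.09 (adjusted p = 7.46e-06). The members took 1.05% and 1.04% of the summed RPKM in WT and 1% and 1.08% in Zn4 libraries at 24 h. Nhp2 had the highest fitted change at 24 h in both genotypes, 3.03 ± 0.12 in WT and 3.08 ± 0.12 in Zn4 cells. These comparisons share their 0 h libraries with those at 12 h.

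At rest the members were called different between the genotypes at close to the rate of all tested genes. At 0 h 2 members were called higher in Zn4 cells and 0 lower (3.76% and 1.96% of all tested genes), and the median difference was 0.00. The 2 were the subunits shared with RNA polymerase III. Polr1c stood at 22.9 and 23.3 RPKM in WT cells and at 30 and 30 RPKM in Zn4 cells, a difference of 0.36 ± 0.09 (adjusted p = 0.0473, limma), and Polr1d at 29.5 and 28.9 against 34.4 and 36.2 RPKM, a difference of 0.26 ± 0.06 (adjusted p = 0.046). In neither gene did the genotypes overlap at 0 h. Both p-values lie just inside the threshold, and neither gene was called with only the groups compared, with the Y-linked level as a covariate or with limma-voom on the recovered reads. Both Zn4 libraries were above both WT libraries for 7 members and below them for 8 (19% and 20.8% of all tested genes).

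At 12 h 36 of the 42 estimates were above 0 in Zn4 cells, with a median of 0.17 (-0.01 for all tested genes), but 3 members were called higher and 0 lower (4.85% and 8.28% of all tested genes). Rrp9 had WT levels of 86.1 and 80.4 RPKM and Zn4 levels of 108 and 126 RPKM, a difference of 0.48 ± 0.11 (adjusted p = 0.0165, limma). Utp23 stood at 8.63 and 8.33 against 10.8 and 10.9 RPKM (0.32 ± 0.09, adjusted p = 0.0361) and Polr1d at 67 and 66 against 77.8 and 79 RPKM (0.23 ± 0.06, adjusted p = 0.042). The genotypes did not overlap at 12 h in any of the 3. Both Zn4 libraries were above both WT libraries for 27 members (29.7% of all tested genes) and below for 2, Utp11l and Rrp1 (33.5% of all tested genes). With only the groups compared 7 members were called higher, and the share of all tested genes called in that fit was not computed. No member was called with the Y-linked level as a covariate, where the median was 0.13, nor without either WT 12 h library or without Zn4 12 h replicate 2. Among all tested genes the covariate fit called 390 higher and 502 lower, against 617 and 1054 without it. A replicate block at each time raised the count of members called, as given further below. The CD8 T cell markers were lower in the Zn4 libraries of 12 h (794 and 814 RPKM in sum) than in the WT libraries (1210 and 1130 RPKM), and their part in the result was not tested.

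At 24 h 2 members were called higher in Zn4 cells and 0 lower (9.4% and 9.96% of all tested genes), with a median of 0.07. Utp23 had the largest fitted genotype difference of any member at any of the 3 times: WT levels of 7.12 and 7.76 RPKM and Zn4 levels of 12.5 and 12 RPKM, a difference of 0.65 ± 0.09 (adjusted p = 0.000872, limma). The gene was at 6.75 and 6.2 RPKM in WT and 5.93 and 6.19 RPKM in Zn4 cells at 0 h, where the Zn4 libraries lay just below the WT libraries. The call at 24 h held under every alternative run, with differences from 0.60 to 0.72 and adjusted p from 0.000776 to 0.0191. Polr1d was the other member called, at 57.4 and 56.8 against 66.6 and 68.6 RPKM (0.24 ± 0.06, adjusted p = 0.0297), and this call was lost when any library of 12 h or 24 h was left out, with adjusted p up to 0.179 over the alternatives. It was higher in both Zn4 libraries than in both WT libraries at all 3 times, by 0.26, 0.23 and 0.24. Polr1c, called at 0 h, differed by 0.15 ± 0.09 at 12 h and 0.26 ± 0.09 at 24 h without a call. Both Zn4 libraries were above both WT libraries for 19 members and below for 9 (32.4% and 36.3% of all tested genes). The count of members called rose with a replicate block at each time, as given further below.

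**Figure D4:**
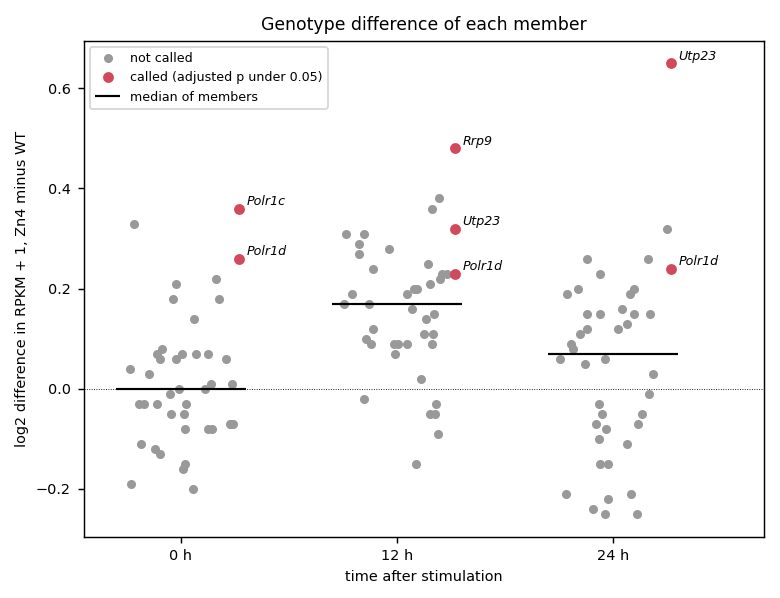
Each point is a member's fitted Zn4 minus WT difference in log2(RPKM + 1) at 0, 12 or 24 h, spread sideways for sight; red points are called and the bar is the median of the members. The medians are 0.00, 0.17 and 0.07, and Utp23 at 24 h (0.65) stands highest.

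**Figure D5:**
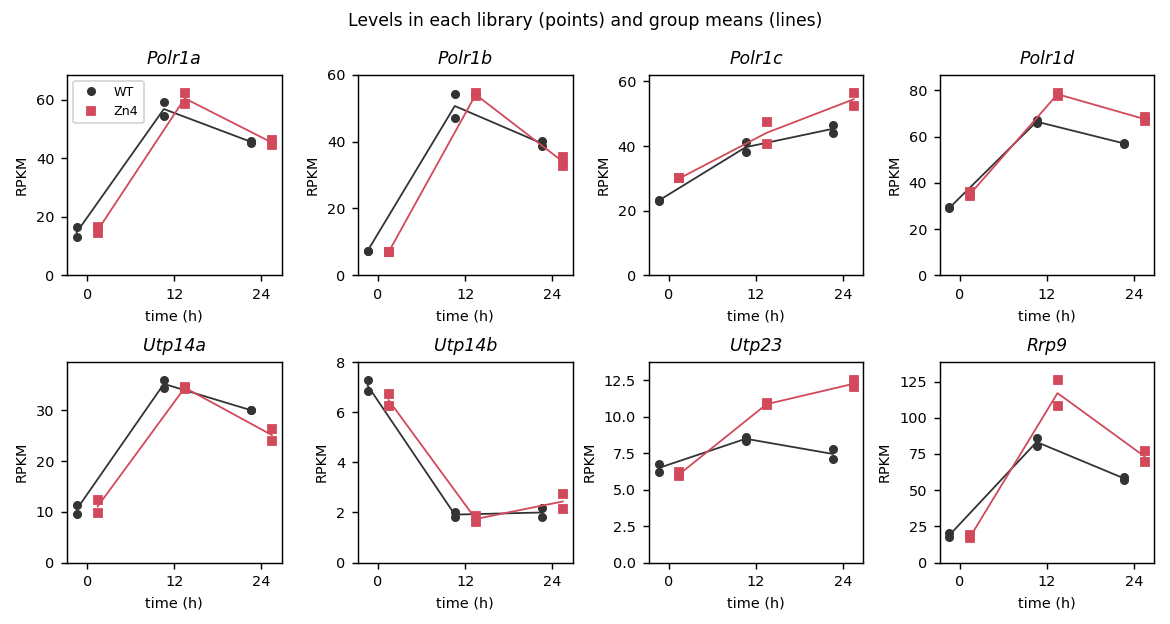
RPKM of 8 members in each library against time, WT as circles and Zn4 as squares set slightly apart, with lines through the means of 2 libraries; vertical axes start at 0. Utp14b falls where Utp14a rises, Polr1c is highest at 24 h, and Zn4 libraries of Polr1d lie above WT libraries at each time.

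The difference in response between the genotypes was tested directly. For the change from 0 h to 12 h limma called 0 members (5.12% of all tested genes), with 4 members at an unadjusted p below 0.05, and limma-voom on the recovered reads called 0. A replicate block at each time did call members in this response, as given further below. The smallest adjusted p of the main fit was that of Rrp9, 0.073, whose rise was 2.08 ± 0.11 in WT and 2.63 ± 0.11 in Zn4 cells, a difference of 0.56 ± 0.15. Utp23 followed with a difference of 0.4 ± 0.12 (adjusted p = 0.0994). For the change from 12 h to 24 h limma called 0 members (0.786% of all tested genes), with 3 at an unadjusted p below 0.05, and limma-voom called 0. The smallest adjusted p was again over the threshold, 0.305 for Utp23. With the Y-linked level as a covariate 0 members were called in either response, and the median differences were 0.09 and -0.07. The larger number of members called lower from 12 h to 24 h in Zn4 than in WT cells is therefore not shown to be a difference between the genotypes. Without the covariate the median difference of that change was -0.13, with 33 of 42 estimates below 0.

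Other genes of the pathway were counted from a list of 73, of which 72 were tested and Riok2 was not analysed here. At 12 h 66 were higher and 1 lower in WT cells (43.1% and 27% of all tested genes), and 67 higher and 0 lower in Zn4 cells (43.5% and 29.6%), with medians of 1.48 and 1.67. With the Y-linked level as a covariate 65 were higher and 1 lower in WT cells and 64 higher and 0 lower in Zn4 cells. From 12 h to 24 h 27 were lower and 0 higher in WT cells (6.94% and 17% of all tested genes), and 44 lower and 0 higher in Zn4 cells (11% and 22.6%), with medians of -0.32 and -0.41. The covariate took these counts to 8 and 2 lower, with medians of -0.27 and -0.32. Among all tested genes it left 317 and 128 called lower, against 883 and 1398 without it. The gene called lower at 12 h in WT cells was Riok1, a kinase of late 40S maturation, at -1.07 ± 0.28. Between genotypes 0 of the 72 were called at 0 h. At 12 h 4 were called higher in Zn4 cells (Nob1, Ltv1, Rrs1 and Ebna1bp2) and 0 lower, against 4.85% and 8.28% of all tested genes, and with the covariate 0 were called. At 24 h 3 were called higher (Nob1, Tsr1 and Gnl2) and 0 lower, against 9.4% and 9.96% of all tested genes. The counts of higher genes are near the background at 12 h and below it at 24 h. Nob1, the nuclease that acts with Pno1, was the gene called at both times, by 0.25 ± 0.07 and 0.37 ± 0.07.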

How the data were processed

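The authors' deposited table gives RPKM values per gene for the 12 libraries, with reads aligned by TopHat2 2.0.12 and counted with HTSeq 0.6.1 on mm10 (GRCm38), per the submitters' processing notes. The strand setting of the counting and the gene annotation are not given in the sources used here, and the library kit was stranded per the labels' protocols. Of 12892 lines, 7 symbols stood on 2 lines and the line listed earlier was kept. The lowest value of any gene's highest group mean was 1.0005 RPKM, so genes below that are not in the table. Library totals were taken from the steps of the RPKM values at genes with 1 annotated length. With these totals an annotated length gave whole reads in all 12 libraries (tolerance 0.02 reads) for 7165 of 12885 symbols. For the other 5720 the smallest length of 100 to 40000 bases that did so was used, so their whole reads follow from that choice.

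The 12726 genes that reached 1 RPKM in 2 or more libraries were fitted as log2(RPKM + 1) with limma 3.58.1 in R 4.3.3, with 1 mean per group over all 12 libraries (6 residual degrees of freedom) and an empirical Bayes trend. P-values were adjusted by Benjamini-Hochberg within each of 11 comparisons and called below 0.05. The scripts were tested on simulated data. Values in every library are given for the members with the highest and lowest change of each role in WT cells at 12 h, those called between genotypes and those of opposite direction. Utp14a, shown beside its copy, was added after its values were seen. The members, the lists and the tests were chosen with earlier results of these data known. Libraries of 1 group correlated at r = 0.98 to 0.995. Deviations of same-numbered WT and Zn4 libraries correlated at 0.61 at 0 h, 0.19 at 12 h and 0.04 at 24 h. The numbers were not taken to pair the samples over all times. At 0 h the main fit therefore leaves out what same-numbered libraries share, and a replicate block at each time was run as an alternative. Gene positions are those of GENCODE M21 on GRCm38, and promoter sequences those of RefSeq. Alternatives were a pseudocount of 0.1 RPKM, no filter, 2 other scalings, a fit of only the groups compared, replicate blocks, the Y-linked level as a covariate, limma-voom on the recovered reads, and leaving out each library. The covariate on the other pathway genes was added after the data were seen.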

Additional observations from a re-analysis of the deposited data

How the results depend on the processing

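With 2 libraries per group, small differences rest on single libraries, while the counts of members called at 12 h and 24 h against 0 h stayed between 40 and 42 under all alternatives run. WT 24 h against 12 h (13 members called) gave 23 with median-ratio scaling, 28 with only the groups compared, 2 with the Y-linked covariate and 1 to 19 when each library was left out. Zn4 24 h against 12 h (29 called) gave 0 with the Y-linked covariate and 10 to 31 when each library was left out. Zn4 against WT at 0 h (2 called) gave 0 with only the groups compared, 1 with the replicate block, 0 with the Y-linked covariate, 0 with limma-voom and 0 to 3 when each library was left out. At 12 h (3 called) the counts were 7 with only the groups compared, 8 with a replicate block at each time, 0 with the Y-linked covariate and 0 to 4 when each library was left out. At 24 h (2 called) they were 8 with a replicate block at each time (6 higher and 2 lower) and 1 to 5 when each library was left out. The genotype difference in the 0 h to 12 h response (0 called) gave 2 with a replicate block at each time. For the replicate blocks and the fit of only the groups compared, the share of all tested genes called was not computed. Whether their higher counts are particular to the members is therefore not known. Among all tested genes, calls of lower at 24 h than at 12 h also fell with the Y-linked covariate. They went from 883 to 317 in WT and from 1398 to 128 in Zn4 cells. The causes were not tested. Median-ratio scaling and quantile normalization took the median change at 12 h to 1.60 and 1.57 in WT cells and 1.75 and 1.64 in Zn4 cells, at 24 h to 1.16 and 1.2 and to 1.22 and 1.24, with the median of all tested genes in WT cells at 12 h going from 0.20 to -0.02 and 0.01. With median-ratio scaling 4351 genes were called higher and 4537 lower there, against 5488 and 3440 with the deposited scaling. The replicate block at each time and the voom fit were added after the data were seen. Where a left-out library leaves 1 in a group, that library is assumed to vary like the rest. The call of Polr1c from 12 h to 24 h in Zn4 cells was lost with median-ratio scaling (0.19) and the Y-linked covariate (0.17). Utp23 in WT cells at 24 h against 0 h, not called, changed direction with median-ratio scaling (-0.18) and quantile normalization (-0.22, called). No called member changed direction under any alternative.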

Other observations

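The RNA polymerase I subunits outside the set and the factors that place the polymerase on its promoter were not all called at 12 h. Cd3eap, a subunit paired with Polr1e in the enzyme, rose in WT cells from 6.22 and 9.79 RPKM at 0 h to 36.4 and 32.2 RPKM at 12 h, a change of 2.0 ± 0.2 (SE, adjusted p = 1.44e-05, limma). Twistnb, a subunit of the stalk, was at 17.4 and 11 RPKM and then at 14.3 and 13.8 RPKM, a change of 0.01 ± 0.19 (adjusted p = 0.951). Znrd1, another subunit outside the set, rose by 0.6 ± 0.11 in WT cells (adjusted p = 0.000678, limma) and by 0.69 ± 0.11 in Zn4 cells. Ubtf, which binds the rRNA genes along their length, rose by 1.79 ± 0.1 and Rrn3, which makes the polymerase competent to initiate, by 1.21 ± 0.12. Of the 4 TAF subunits of the promoter selectivity factor listed, Taf1d rose by 0.7 ± 0.17 (adjusted p = 0.00484), whereas Taf1a (0.17 ± 0.2), Taf1b (0.24 ± 0.15) and Taf1c (-0.01 ± 0.28) were not called in WT cells at 12 h. In Zn4 cells at 12 h Taf1a rose by 0.58 ± 0.2 (adjusted p = 0.0259) and Taf1d by 0.61 ± 0.17 (adjusted p = 0.00977), while Taf1b (0.35 ± 0.15), Taf1c (0.19 ± 0.28) and Twistnb (0.34 ± 0.19) were not called. Myc, a transcription factor known to act on ribosome genes, was at 25 and 10.1 RPKM at 0 h and at 272 and 254 RPKM at 12 h in WT cells, and at 28.9 and 30.7 and then 366 and 366 RPKM in Zn4 cells.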
